A study of Ovis aries with 6 samples.

Results

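KRT35, K38 and V15 are hair keratin genes of the wool fibre, and their probes were compared between wool-bearing and non-wool-bearing skin of Aohan fine wool sheep. The members were found by name: every non-control probe whose RefSeq mRNA accession belongs to one of these genes in the sheep gene table was kept, which gave 6 probes, 2 for each gene. They are 3 of the 476 genes, and 6 of the 734 probes, that could be given a symbol on an array of 15008 probes. V15 is also listed as KRT31. Full-thickness skin was sampled from 3 sheep with the same father, 1 ram and 2 ewes of 12 months, reared in pens and with no treatment named. The body side, which bears wool, gave 3 arrays and the groin, which does not, gave 3, each array holding Cy3-labelled RNA of 1 animal and site. The title of the series gives the question: which genes go with wool in anagen, the growth phase of the follicle.

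Hair keratins are the intermediate filament proteins that fill the cells of the hair shaft as these harden above the follicle bulb. They come as acidic (type I) and basic (type II) chains, and a filament needs 1 type II partner for each type I chain; keratin-associated proteins then cross-link the filaments into the fibre matrix. All of KRT35, K38 and V15 are type I chains. In hair, KRT35 appears low in the shaft, in its cortex and cuticle, and the chain that V15 encodes appears higher, in the cortex. In the sheep assembly ARS-UI_Ramb_v3.0 the genes are neighbours in the type I keratin cluster: V15 and K38 have no annotated gene between them, and KRT32 is the 1 gene between K38 and KRT35. No probe was named as KRT32 or as a type II hair keratin, so the partner chains were not analysed here. Whether a probe also binds the RNA of a related keratin was not tested.

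The 3 groin arrays were read in 1 scan and the 3 body side arrays in another, so for every difference given here the scan and the site cannot be told apart. The groin arrays were brighter, with a 75th percentile of the scanner's processed signal (an intensity corrected for background) 2.98 times that of the body side arrays. Levels are therefore given as scaled log2 levels, log2 of that signal minus the 75th percentile of its own array, and differences as body side minus groin. A level describes 1 probe across arrays, and the brightness of different probes is not read as more or less RNA. Skin is a mixture of cells, and more cells of the wool follicle and more keratin RNA per cell cannot be told apart. Arrays of a site are separate animals, and the number of arrays limits the precision.

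KRT35 had the largest difference of the 3 genes under this scaling. Its brighter probe, A_70_P049451, had processed signals of 21587, 23125 and 20273 in groin replicates 1, 2 and 3, and of 188868, 211891 and 176525 in body side replicates 1, 2 and 3. The sites did not overlap, and the lowest body side signal lay far above the highest groin signal even though the body side arrays were the dimmer ones. On the scaled log2 scale the groin arrays read 2.55, 2.47 and 2.20 and the body side arrays 7.42, 6.69 and 7.29. KRT35 was thus 26.4-fold higher on the body side (log2 difference 4.72 ± 0.23 SE, limma adjusted p = 7.16e-06; means 7.13 ± 0.39 against 2.41 ± 0.18, SD, n = 3 each). The second probe, A_70_P049452, gave 26.8-fold (4.74 ± 0.25 SE, limma adjusted p = 8.04e-06), with levels of 2.38, 2.62 and 1.96 in the groin and 7.23, 6.63 and 7.33 on the body side. For A_70_P049451 the lowest body side level was 17.6 times the highest groin level.

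V15, the wool KRT31 chain, was 10.3-fold higher on the body side by its brighter probe, A_70_P030296 (log2 difference 3.36 ± 0.17 SE, limma adjusted p = 7.19e-06). Its processed signals were 33780.3, 38074.7 and 33564.3 in the groin and 90942.4, 178192 and 110236 on the body side. Body side replicate 2 stood highest of the 3 before scaling, and after scaling the body side arrays lay together at 6.37, 6.44 and 6.61, against 3.20, 3.19 and 2.93 in the groin. The other probe, A_70_P001727, was 8.06-fold higher (3.01 ± 0.17 SE, limma adjusted p = 1.02e-05), with signals of 28687, 33390 and 28405 in the groin and 58576, 128052 and 71933 on the body side. The sites did not overlap for either probe, and the lowest body side level of A_70_P030296 was 8.97 times the highest groin level. The body side arrays of these probes spanned 1.18-fold and 1.20-fold after scaling and 1.96-fold and 2.19-fold before it.

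K38, a type I wool keratin, was 10.54-fold higher on the body side by A_70_P048717 (log2 difference 3.40 ± 0.24 SE, limma adjusted p = 2.13e-05). This probe read processed signals of 524, 731 and 606 in the groin and 2035, 2320 and 2181 on the body side. Scaled levels were -2.81, -2.51 and -2.86 in the groin and 0.88, 0.18 and 0.95 on the body side, where replicate 2 was the lowest. The second K38 probe, A_70_P048716, was 19.1-fold higher (4.25 ± 0.26 SE, limma adjusted p = 1.18e-05), with signals of 321, 455 and 319 in the groin and 1944, 2476 and 2537 on the body side. Both probes kept the sites apart, with the lowest body side level 6.46 and 11.1 times the highest groin level, but their sizes of difference were not alike.

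**Figure D1:**
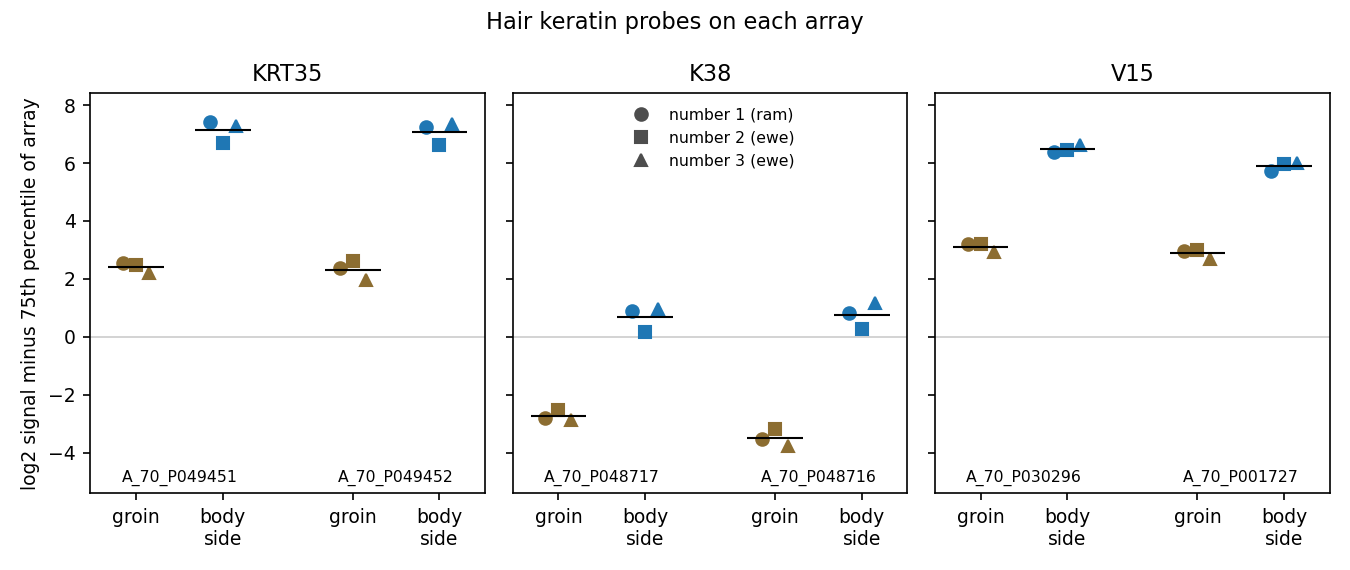
Scaled log2 level (log2 processed signal less the array's own 75th percentile) of the 2 probes of KRT35, K38 and V15 on each of the 3 groin (brown) and 3 body side (blue) arrays; symbols give the replicate number and bars the site mean. For every probe the 3 body side arrays lie above the 3 groin arrays, and the gap between means runs from 3.01 (V15, A_70_P001727) to 4.74 (KRT35, A_70_P049452).

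All 6 probes were well above background on all 6 arrays by the scanner software's flag, the groin arrays included. Non-wool-bearing skin thus gave signal above background for these genes. A probe's place in the brightness order of its own array was set against its place on the other arrays, as a description. Between 4.11% and 4.56% of all probes on a groin array were brighter than A_70_P030296 of V15 and between 6.58% and 7.32% brighter than A_70_P049451 of KRT35. On the body side those shares were 0.942% to 1.32% for V15 and 0.548% to 0.775% for KRT35. For A_70_P048717 of K38, groin shares ran between 52.3% and 56.9% and body side shares between 18.7% and 23.5%. Such ranks within an array do not depend on scaling between arrays, and for these probes they did not overlap between the sites. Bright spots were taken by the scanner software from a second, low-gain reading and scaled up. That applied to both V15 probes and to A_70_P049451 on all 6 arrays and to A_70_P049452 on 5 of 6 (not on groin replicate 3), but to no K38 spot, so the K38 differences rest on the ordinary reading alone.

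All 6 member probes were higher on the body side at a limma adjusted p under 0.05, and so was each of the 3 genes. Calls were common on these arrays: of 13278 tested probes 69.9% were called, 37.0% as higher on the body side, and on 39.8% every body side array lay above every groin array. A call or a gap between the sites is therefore shared with many probes, and it is by the size of the difference that the members stood near the top. Ordered by log2 difference, the KRT35 probes took places 15 and 16 among the 13278, the K38 probes 26 and 56 and the V15 probes 61 and 80. The median difference of all tested probes was 0.10. The members were chosen with earlier results of these data known, so their places are a description and not a test.

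The site difference of all probes was highest among the brightest probes, where KRT35 and V15 lie. When the tested probes were put into 10 groups of near equal size by mean signal, the median difference was 1.14 in the brightest, 0.68 and 0.25 in the next groups, and between -0.42 and 0.067 in the 7 dimmer ones. Among the brightest, 78.3% of the probes were called higher. In that group of 1328 probes, KRT35 took places 11 and 12 by size of difference and V15 places 41 and 51. Both V15 probes were 2.23 and 1.87 above the median of their group, and both KRT35 probes 3.59 and 3.61. K38 lies in groups 6 and 7, whose medians were -0.40 and -0.13. There A_70_P048716 had the largest difference of 1328 probes and A_70_P048717 the second largest of 1327, at 4.66 and 3.53 above the group median. Both K38 probes thus stood further above the median of probes of like signal than the V15 probes did.

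**Figure D2:**
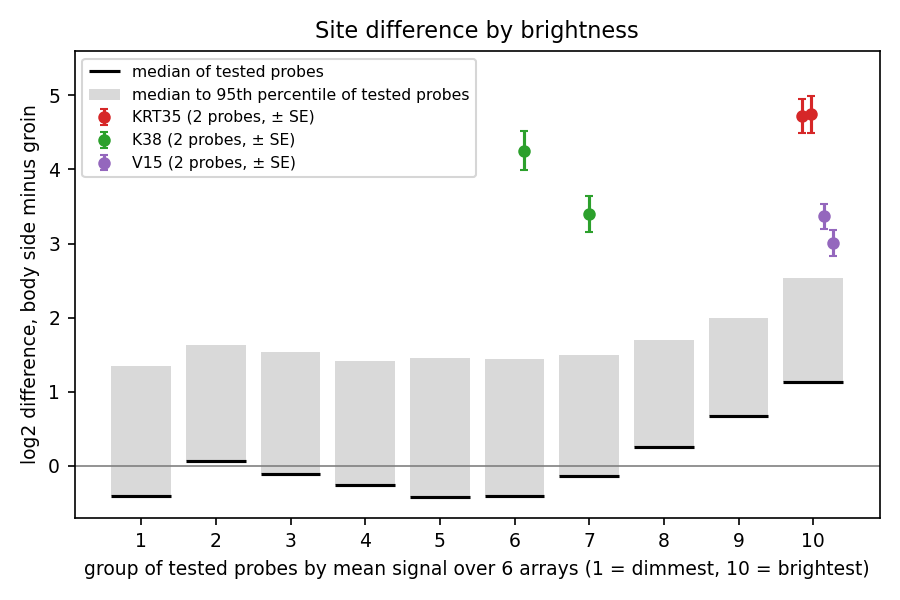
Log2 difference (body side minus groin) of the 6 hair keratin probes with SE (points) over 10 groups of tested probes ordered by mean signal; black lines give each group's median and grey bars run from it to the 95th percentile. All 6 probes lie above the grey bars, K38 in groups 6 and 7 and KRT35 and V15 in group 10, where the median of all probes is 1.14.

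The members kept their direction without any scaling. With unscaled log2 signals, 190 of the 13278 probes (1.43%) were called higher on the body side and 9412 lower, because the body side arrays were dimmer as a whole, and all 6 member probes were among the 190. In that setting KRT35 was 8.87-fold higher (log2 difference 3.15, limma adjusted p = 1.13e-05), K38 3.54-fold (1.82, limma adjusted p = 2.31e-04) and V15 3.46-fold (1.79, limma adjusted p = 6.20e-04) by the brighter probe of each. With the main scaling higher calls made up 53.0% of all calls, with median centring 68.5% and with normexp background correction 68.6%. The median over all probes shifted by 0.46 and 0.36 in those settings, by -1.57 without scaling and by -0.12 with cyclic loess. Relative to that median, KRT35 was 4.62 higher with the main scaling and 4.23 with normexp, K38 3.29 and 2.81, and V15 3.26 and 3.02.

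The gaps between the 3 genes depended on the setting, and in some the order of K38 and KRT35 turned. With the main scaling K38 (3.40) and V15 (3.36) lay together below KRT35 (4.72). With quantile normalization KRT35 was at 3.66 and V15 at 2.13, while K38 was at 3.49. The authors' deposited log2 values gave 3.66 for KRT35, 2.17 for V15 and 3.71 for K38, and cyclic loess 3.44, 2.08 and 3.60. KRT35 and V15 were thus over 1 log2 unit lower in these 3 settings than with the main scaling, and K38 was not lower. KRT35 was above V15 in all 7 settings, which are not 7 separate checks. The main scaling, median centring and no scaling differ by 1 factor per array, so their gap of 1.36 is the same by construction. The deposited values followed the quantile-normalized ones closely (Pearson r = 0.999 on every array). All these values are of the brighter probe of each gene. By these K38 was below KRT35 with quantile normalization and above it with cyclic loess and the deposited values. The second K38 probe, A_70_P048716, was at 4.31, 4.53 and 4.54 in these settings, in the order given, above both KRT35 probes in each.

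**Figure D3:**
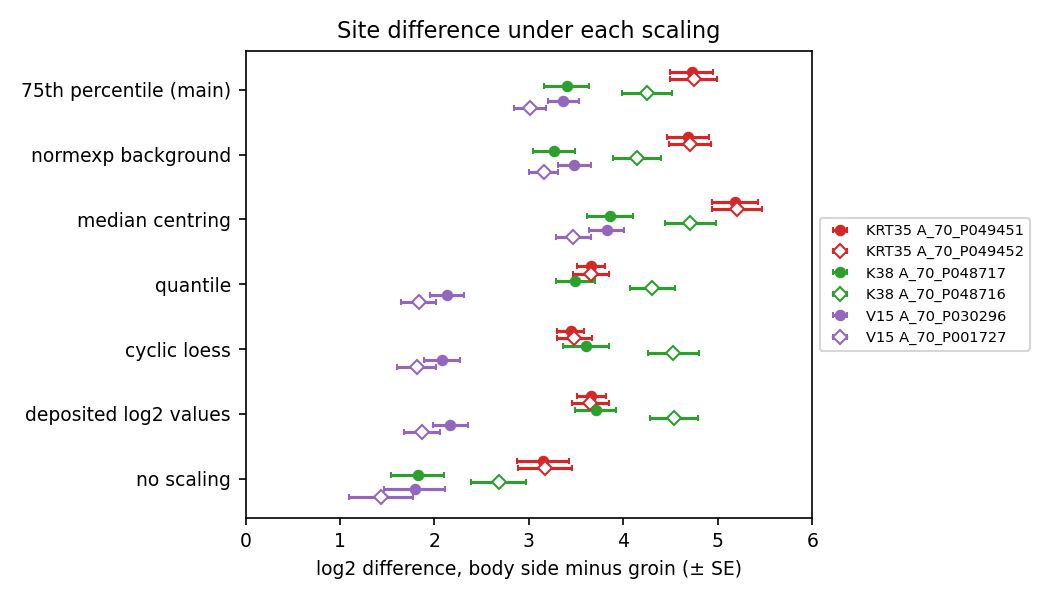
Log2 difference (body side minus groin) with SE of each probe of KRT35 (red), K38 (green) and V15 (purple) under 7 settings of background and scaling; filled circles are the brighter probe of each gene and open diamonds the other. All values lie above 0, from 1.44 (V15, no scaling) to 5.20 (KRT35, median centring), and the green points stay in place while the red and purple points move left with quantile normalization, cyclic loess and the deposited values.

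Ratios within an array, in which any scaling by a single factor cancels, were compared between the sites for pairs of genes. Probes of the same gene could also change unequally, as given below for K38 and V15. A change of ratio is therefore one between probes, and it does not by itself show that the genes changed unequally. The log2 ratio of KRT35 to V15 was 1.36 higher on the body side than in the groin (2.56-fold), without overlap: it ran from -0.73 to -0.65 in the groin and from 0.25 to 1.05 on the body side. KRT35 over K38 was 1.33 higher (2.51-fold), also without overlap, but 0.16 with quantile normalization, -0.05 with the deposited values and -0.16 with cyclic loess. For K38 over V15 the change was 0.033 with overlapping sites, and 1.36, 1.54 and 1.52 in the same settings. In exact two-sided permutation tests the p of these 3 comparisons was 0.1, 0.1 and 0.9 in the order given (0.15, 0.15 and 0.9 after Benjamini-Hochberg adjustment), and 0.1 is the smallest that 3 against 3 arrays allow. The change in KRT35 over V15 was between 1.16 and 1.56 when any single array was left out.

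The choice of probe mattered for K38. A_70_P048717 stood for the gene as the brighter probe over all arrays, a lead that came from the groin (mean level -2.73 against -3.50). On the body side A_70_P048716 read slightly higher (0.75 against 0.67). The log2 ratio of A_70_P048717 to A_70_P048716 fell by 0.85 from groin to body side, without overlap (groin arrays 0.68 to 0.93, body side arrays -0.22 to 0.07; exact permutation test, two-sided, p = 0.1). For the V15 probes the ratio changed by 0.35, again without overlap (p = 0.1 in the same exact test), and for the KRT35 probes by -0.020 with overlap (p = 0.9 in the exact test). With the other probe of each gene, KRT35 over K38 changed by 0.49 and K38 over V15 by 1.24, against 1.33 and 0.033 above. The place of K38 between KRT35 and V15 is thus not settled by these arrays.

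**Figure D4:**
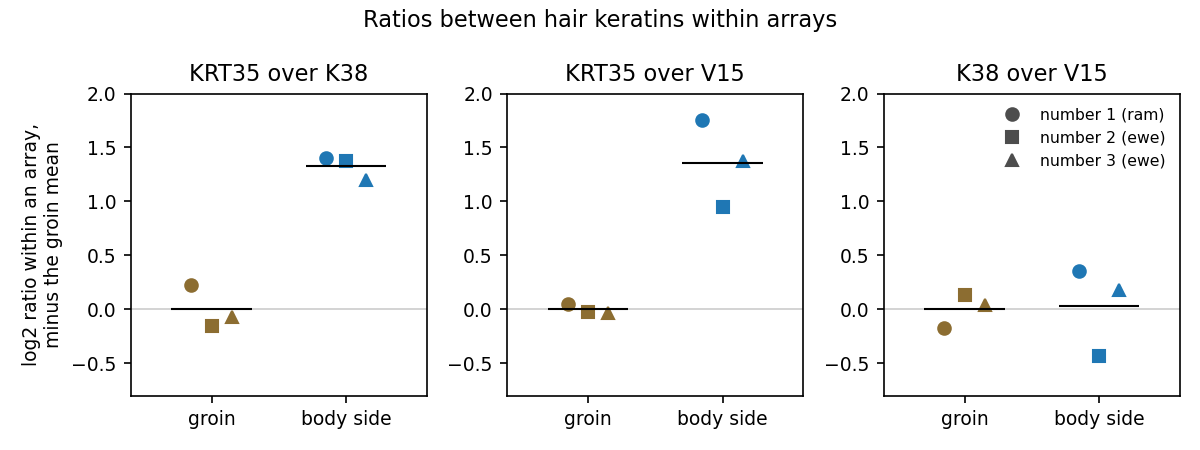
Log2 ratio of 2 hair keratins within each array (brighter probe of each gene, main scaling), minus the mean of the 3 groin arrays; symbols give the replicate number and bars the site mean. The body side arrays lie above the groin arrays for KRT35 over K38 (mean change 1.33) and KRT35 over V15 (1.36) and on both sides of them for K38 over V15 (0.033).

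Within a site, the order of the arrays depended on the scaling. On the scaled level, body side replicate 2, an ewe, was the lowest of the 3 body side arrays for both KRT35 and both K38 probes, by up to 1.66-fold and 1.86-fold below the highest. Before scaling the same array had the highest signal of the 3 for A_70_P049451 and A_70_P049452, and the KRT35 probes spanned 1.20-fold and 1.23-fold. V15 spanned 1.20-fold at most on the body side after scaling and up to 2.19-fold before it, with replicate 1, the ram, lowest in both; the site difference of that V15 probe, A_70_P001727, was 2.71-fold before scaling. In the groin, replicate 3 was the lowest for all 6 probes after scaling, with spans of 1.20-fold to 1.57-fold. Before scaling, groin replicate 1 was the lowest for A_70_P048717 (524 against 606 in replicate 3). In the ram, whose skin gave array 1 at both sites, body side minus groin was 4.87 for KRT35 (A_70_P049451), 3.69 for K38 (A_70_P048717) and 3.17 for V15 (A_70_P030296). The ewes' mean differences were 4.65, 3.25 and 3.46. Ram minus ewes was 0.21 ± 0.47 SE for KRT35, 0.44 ± 0.51 for K38 and -0.30 ± 0.42 for V15, and no member passed (limma interaction term, lowest adjusted p among the 6 probes 0.999). Over 13210 probes that term called 0.106%. With 1 ram array per site the term bears little on whether the animals differed, and a difference between the sexes and one between animals cannot be told apart.

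By profile over the 6 arrays, each centred on its own mean, the named genes closest to the members were a fibre gene for KRT35, a sheath gene for K38 and a gene known from the lung for V15. Of the 9 places given here, SFTPC and CRYAB, which no follicle list holds, took 5. Of 436 named genes, KRTAP5.4, a keratin-associated protein, lay closest to KRT35, at a root mean square distance of 0.19 on the log2 scale. SFTPC, a lung surfactant protein, was next at 0.69 and KRT27, an inner root sheath keratin, came after it at 0.71; K38 itself was at 0.68 and V15 at 0.72. For K38 the closest were KRT27 (0.18), CRYAB, a small heat shock protein (0.21), and SFTPC (0.22). For V15 they were SFTPC (0.20), CRYAB (0.24) and KRTAP4.3 (0.30). K38 and V15 were 0.25 apart. The distances mix the size of the site difference with the order of the arrays, and they belong to the main scaling.

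The other fibre and sheath genes rose as well, most of them by less than KRT35. Both keratin-associated proteins with a probe rose, KRTAP5.4 by 4.99 ± 0.29 SE and KRTAP4.3 by 2.94 ± 0.22 on the log2 scale (limma adjusted p = 9.94e-06 and 2.48e-05). All 3 tested genes of the inner root sheath, the layer that moulds the growing shaft, rose: KRT27 by 3.31 ± 0.27, KRT25 by 2.74 ± 0.28 and PADI3, a peptidylarginine deiminase, by 1.94 ± 0.20 (highest limma adjusted p = 9.00e-05). Of all 442 tested named genes 45.5% rose and 25.6% fell, with a median difference of 0.39. The medians were 3.40 for the 3 hair shaft keratins, 3.97 for the keratin-associated proteins and 2.74 for the inner root sheath. The call on PADI3 ended without scaling.

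Within arrays the brighter KRT35 probe gained on the brightest probes of the inner root sheath genes KRT27 and KRT25. Its log2 ratio was 1.41 higher on the body side against KRT27 and 1.99 higher against KRT25, and the sites did not overlap in either. With quantile normalization these changes were 1.59 and 2.24. Against KRTAP5.4 the ratio of KRT35 was 0.26 lower on the body side, also without overlap. V15 over KRT27 changed by 0.052 and K38 over KRT27 by 0.086, both with overlapping sites; with quantile normalization they were at 0.067 and 1.43. Of the 15 such ratios of a member to another fibre or sheath gene, 11 were without overlap and 4 with it under the main scaling. The share without overlap among ratios of other gene pairs was not computed, so these counts are a description. V15 over PADI3, at 1.42 with the main scaling, was at -0.13 with quantile normalization and -0.16 with cyclic loess. V15 over KRTAP4.3 went from 0.42 to -0.34 and -0.24. The others kept their sign in these settings. Probes of the same gene also changed without overlap for K38 and V15. The exact two-sided permutation p of the 15 ratios was 0.1 at the lowest (0.136 after Benjamini-Hochberg adjustment over the 15).

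**Figure D5:**
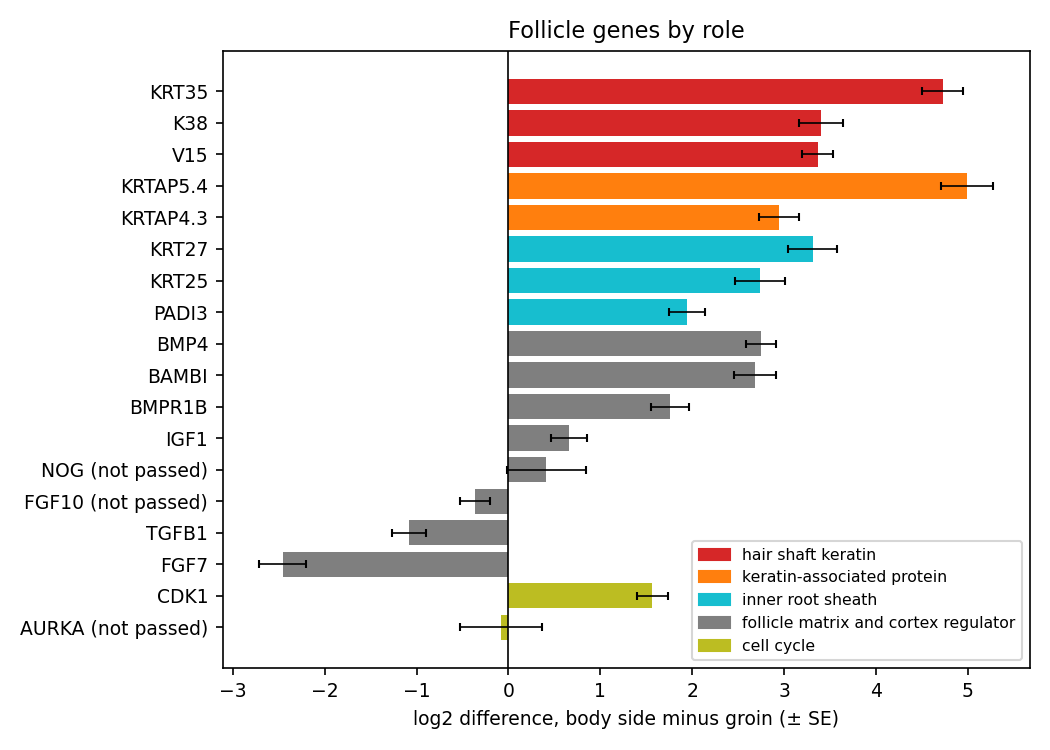
Log2 difference (body side minus groin) with SE of the tested named genes of 5 lists, by the brightest probe of each gene: hair shaft keratins, keratin-associated proteins, inner root sheath, follicle regulators and cell cycle. All 8 bars of the first 3 lists lie above 0, from 1.94 (PADI3) to 4.99 (KRTAP5.4), and the regulators lie on both sides of 0.

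Of 8 tested genes that steer the follicle's matrix and cortex 4 rose, 2 fell and 2 did not pass, with a median difference of 0.54. Over all tested named genes the shares were 45.5% and 25.6%, so the regulators lay near that background. BMP4, a ligand that favours differentiation of the shaft, rose by 2.75 ± 0.17 SE, BAMBI, a decoy receptor of that pathway, by 2.68 ± 0.23 and the receptor BMPR1B by 1.76 ± 0.21 (highest limma adjusted p = 1.78e-04). FGF7, a growth factor made by dermal cells, fell by 2.46 ± 0.25 (limma adjusted p = 9.68e-05). IGF1 was the fourth that rose, by 0.66 ± 0.20 (limma adjusted p = 0.0164), but its call ended without replicate 1 or 3 at both sites and without replicate 3 at either site, and it was at -0.92 without scaling. TGFB1 was the other that fell, at -1.09, and the brightest probes of NOG and FGF10 did not pass. Other probes of both genes did: the second NOG probe was at 0.87 (limma adjusted p = 0.00228), and 3 further FGF10 probes were at -3.01, -1.30 and -2.16 (limma adjusted p = 5.24e-04, 0.00674 and 3.16e-04). Of 2 cell cycle genes, CDK1, the kinase that drives entry into mitosis, rose by 1.56 ± 0.17 (limma adjusted p = 1.27e-04) and AURKA was at -0.08. Without scaling 2 regulators were called higher and 5 lower, and CDK1 was at -0.010. The list of other epidermal keratins and filament genes had no named probe.

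Markers of other skin cells also moved between the sites, and their part in the keratin differences was not tested. The scaled signals of each list's tested genes, by the brightest probe of each, were summed per array in multiples of the 75th percentile, so that bright probes weigh most. The hair shaft keratins ran from 12.4 to 15.2 in the groin and from 192 to 256 on the body side, the keratin-associated proteins from 2.85 to 4.19 and from 64.6 to 103, and the inner root sheath from 57.3 to 69.3 and from 333 to 665. The 3 T lymphocyte genes (2 rose, 1 fell) went from between 2.31 and 2.84 to between 6.42 and 7.83. TYR of melanocytes, which rose, went from between 0.036 and 0.042 to between 0.11 and 0.16. The T lymphocyte, melanocyte, regulator and cell cycle sums were higher on the body side without overlap in all settings but no scaling, which lowers every difference. The hair shaft, keratin-associated and inner root sheath sums were so in all 7.

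Other marker lists were less settled. The 3 skeletal muscle genes (2 rose, 1 fell) went from between 3.45 and 4.64 in the groin to between 6.92 and 9.22 on the body side, and the 2 adipocyte genes (1 rose, 1 fell) from between 2.11 and 2.40 to between 2.70 and 4.76. Both sums overlapped with quantile normalization, cyclic loess and the deposited values. Of their genes, TNNC2, PLIN1, LPL, MYL11 and MB lost their calls, or were not tested, in 12, 11, 6, 4 and 1 of 19 alternative fits. Without scaling PLIN1 was called lower (-0.95). The second probes of MB (1.04) and PLIN1 (0.085) did not pass (limma adjusted p = 0.0815 and 0.730). The 3 fibroblast genes (1 rose, 2 fell) went from between 84.1 and 94.9 to between 116 and 203. Their sum was higher in the groin with quantile normalization, cyclic loess, the deposited values and no scaling. DCN, the 1 that rose, was itself below 0 in those settings, and its second probe did not pass (0.32, limma adjusted p = 0.145). MMP2, which fell, cleared background on 2 body side arrays and passed the filter through the groin. Its other probes also fell (-3.17 and -3.31).

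Summed levels of the endothelial, sebaceous and red blood cell lists were lower on the body side. The 2 selectins of endothelium fell (0.31 to 0.37 against 0.15 to 0.17), though SELP lost its call in 4 of the other 6 settings. Of the 4 sebaceous genes (1.95 to 2.54 against 0.79 to 0.86) 2 rose and 2 fell. SCD did not clear background on any body side array. DGAT1, which rose by 0.46, lost its call in 8 of 19 alternative fits and was called lower without scaling (-1.11). Its second probe was at -0.83 (limma adjusted p = 0.00401). The red blood cell sum (1.58 to 2.28 against 0.20 to 0.54) rests on CA1, which cleared background on 1 body side array and passed the filter through the groin, while HBB rose by 1.70. The smooth muscle gene did not pass, and its sum overlapped between the sites with the main scaling, normexp and median centring. That sum was higher in the groin with quantile normalization, cyclic loess, the deposited values and no scaling. Of the 4 myeloid genes TLR4 fell and 3 did not pass by their brightest probe. The myeloid sum overlapped in all settings but no scaling, where it was higher in the groin. The second probe of each of those 3 fell: ITGAM by 3.02, TLR2 by 1.74 and CD14 by 0.89 (highest limma adjusted p = 0.0122).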

How the data were processed

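RNA of skin from 2 body sites of 3 sheep was amplified, Cy3-labelled and put on single-colour Agilent arrays, per the labels' protocols. Agilent Feature Extraction 10.5.1.1, per the file headers, gave the deposited processed signal, an intensity corrected for background within each array and not scaled between arrays, and the flag columns, which hold a 0 or 1 per spot. The authors also deposited log2 values, whose columns share a median of 8.31. How these were made is not stated in the sources used here. On every array they correlated with the quantile-normalized values at Pearson r = 0.999, so the 2 settings are close to one another. Groups and replicate numbers were taken from the titles.

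Controls and outlier-flagged spots (6 to 51 per array) were dropped, repeated probes averaged, and log2 processed signals scaled by their array's 75th percentile. Tested were the 13278 of 15008 probes that cleared background on every array of 1 site or both, with 2 or more values at each. Site differences came from limma 3.58.1 in R 4.3.3 (lmFit, eBayes, no block), with Benjamini-Hochberg adjustment over all tested probes (threshold 0.05); the fit was tested on simulated data. The interaction of site and sex left out probes with a missing value. For a gene with several probes the one with the highest mean stands for it in lists and ratios. Named were all probes of the 3 genes, all tested genes of the shaft, associated protein and sheath lists, up to 4 of each other follicle list by smallest p, and the 3 nearest profiles. IGF1, TGFB1, NOG, FGF10, AURKA and the markers of other cells were named after their values were seen. The members and lists were chosen with earlier results of these data known. Normexp (offset 50) used the median spot signal in place of the mean. Added after seeing the data were the other probe of each gene, ratios to other fibre and sheath genes, and summed list levels.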

Additional observations from a re-analysis of the deposited data

How the results depend on the processing

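All 6 probes of KRT35, K38 and V15 stayed higher on the body side and past the threshold in each of 19 alternative fits per probe (114 in all; highest limma adjusted p 0.0033, for A_70_P001727 of V15 without scaling). The call did not depend on any single array. Same-numbered arrays deviated together at 0.16 (the ram), 0.089 and -0.088 across probes (Pearson r). Arrays of unlike number ran from -0.24 to 0.16, with body side replicate 2 and groin replicate 3 the highest. No pairing of the ewes was therefore assumed. The replicate block pairs arrays by number and cannot move the mean difference of a balanced design (4.72 for KRT35, A_70_P049451). It left the 6 calls in place, and 4869 probes were called higher and 4342 lower. Leaving out 1 array or 1 number gave 4.54 to 4.97 for that probe, 3.19 to 3.75 for A_70_P048717 and 3.21 to 3.46 for A_70_P030296. The mean of both probes was 3.83 for K38 and 3.19 for V15. The change in KRT35 over K38 fell to 0.16 with quantile normalization, -0.16 with cyclic loess, -0.046 with the deposited log2 values and 0.49 with the other probe of each gene; K38 over V15 went to 1.36, 1.52, 1.54 and 1.24 in the same settings. The cause was not tested. Ram minus ewes, never past the threshold, turned sign without scaling for A_70_P049451 (-0.030), A_70_P049452 (-0.091) and A_70_P048716 (-0.12), with normexp for A_70_P049452 (-0.12), and for A_70_P048716 with quantile normalization (-0.025) and the deposited values (-0.034). Over all probes this term called 14 probes, also with quantile normalization, 4 with median centring and with cyclic loess and 5 without scaling and with the deposited values; with normexp limma called 0, with 394 at an unadjusted p under 0.05 against 1117. Without scaling 190 probes were called higher and 9412 lower, against 4918 and 4361; median centring gave 6606 and 3032, and normexp 6533 and 2984. A filter on all 6 arrays gave 4801 and 2963, and leaving out number 3 gave 3290 higher and 3220 lower calls. Scan and site coincide, so no fit with the scan as a term could be made.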

Other observations

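Some probes without a gene symbol followed KRT35 and V15 more closely than any named gene did. Such probes far outnumbered the named genes compared (12563 against 436), and whether that number accounts for it was not tested. For KRT35, 2 such probes of 12563 lay closer than KRTAP5.4: A_70_P065846, with a log2 difference of 4.76 ± 0.25 SE, and A_70_P060601, with 4.89 ± 0.25 (limma adjusted p = 8.04e-06 and 7.28e-06). For V15, 10 lay closer than SFTPC, the nearest being A_70_P012856 at 3.28 ± 0.17 and A_70_P046751 at 3.51 ± 0.20 (limma adjusted p = 8.21e-06 and 9.43e-06). For K38 none of the 12563 lay closer than KRT27. The genes behind these probes were not looked up.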
